A study of Homo sapiens with 6 samples.

Results

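The genes described here are the homeobox and developmental transcription factors of an RNA sequencing experiment in ARPE-19 cells, an established line of human retinal pigment epithelium (RPE). The rule that chose them reads gene symbols and no measured value. A member is a protein-coding gene whose symbol belongs to the HOX, PAX, LHX, SOX, FOX, TBX, MEIS, PITX, IRX, DLX, MSX, OTX, VSX, ALX, PRRX, NKX, GATA, TWIST, SNAI, ZEB, KLF or TFAP2 series or to the sine oculis family of SIX4 and SIX5, or is MITF, DACH1 or 1 of the EYA genes, and RAX was left out. The table of the experiment lists 7758 genes, and 50 of them are members. All cells had been stimulated with the bacterial product lipopolysaccharide (LPS) at 1 µg/ml for 24 h. They carried either a lentiviral short hairpin RNA against METTL3 (sh-METTL3, the METTL3-silenced cells) or a scrambled hairpin (sh-Control, the control cells), with 3 libraries in each group and drug selection of the infected cells. METTL3 is the enzyme that writes N6-methyladenosine into mRNA. There were no cells without LPS, so the comparison asks how these factors differed between silenced and control cells under LPS.

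Transcription factors of these families bind DNA through a homeodomain, a paired domain, an HMG box, a T-box, a forkhead domain or zinc fingers, and many set the identity of cells in the embryo. In the eye, PAX6, LHX2, RAX, SIX3 and SIX6 act in the eye field, MITF and OTX2 drive the pigment epithelium, and MEIS proteins act upstream of PAX6. SNAI, ZEB and TWIST factors repress epithelial genes and are known for their part in the epithelial to mesenchymal transition, a process that RPE cells can enter in culture. KLF and FOXO factors respond to growth and stress signals in adult cells.

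The table bounds what can be read from the members. Its authors listed only genes that they had already called as different between the groups, so every p-value below was computed on libraries that had also chosen the gene, and the counts describe the list and not the transcriptome. By the annotation, 232 protein-coding genes fit the symbols, and 50 of them (21.6%) had a row, beside 33.8% of all 19969 protein-coding genes. None of the 39 HOX genes had a row, nor did DACH1 or any DLX, OTX, VSX, ALX, PRRX or EYA gene. SOX9, SOX2, OTX2 and SIX3 were also without one. These genes were not analysed here. One member, FOXRED1, fits by its letters only, since it encodes an oxidoreductase-like protein of mitochondria and no forkhead factor.

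The values are scaled counts, the reads of a gene divided by 1 size factor per library. Reads on the listed genes numbered 10898434 to 17750052 per library, and the full depth is unknown. METTL3 itself had scaled counts of 1154, 1108 and 1091 in the control libraries and 966, 1001 and 765 in the sh-METTL3 libraries, without overlap. Its log2 fold change was −0.30 (SE 0.0965, adjusted p = 0.0108 by limma), so the targeted mRNA was lower by less than the median absolute difference of the members (0.80). On the second principal component (3.36% of the variance), sh-METTL3 replicate 3 differed most from the rest. No source says if these libraries represent independent infections or cultures, so the p-values measure the spread between these libraries, which may be technical. In bulk RNA, fewer cells that express a gene and less RNA per cell cannot be told apart.

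Most members were lower in the METTL3-silenced cells. Of the 50, 17 were higher (34%) and 33 were lower (66%), whereas 47.6% of all listed genes were called higher and 52.2% lower. Members are protein-coding by rule, and of the 6740 listed protein-coding genes 43.8% were higher and 56.1% lower. All 50 passed the limma test with Benjamini-Hochberg adjustment at 0.05, which says little, because 99.9% of the listed genes passed. The groups did not overlap in 49 members, beside 98.5% of the listed genes, and SNAI3 was the exception. The median log2 fold change of the members was −0.51, compared with −0.21 over all listed genes and −0.25 over the protein-coding ones. A doubling was passed by 8 members (16%, beside 17.5% of the listed genes and 12.6% of the protein-coding ones) and a halving by 8 (16%, beside 13.2% and 12.7%). The other 444 listed transcription factors had 39.2% higher, 60.8% lower and a median of −0.31. No test of these differences was made. The median of the members was −0.53, −0.49 and −0.54 in sh-METTL3 replicates 1, 2 and 3, each set against the mean of the controls.

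**Figure D1:**
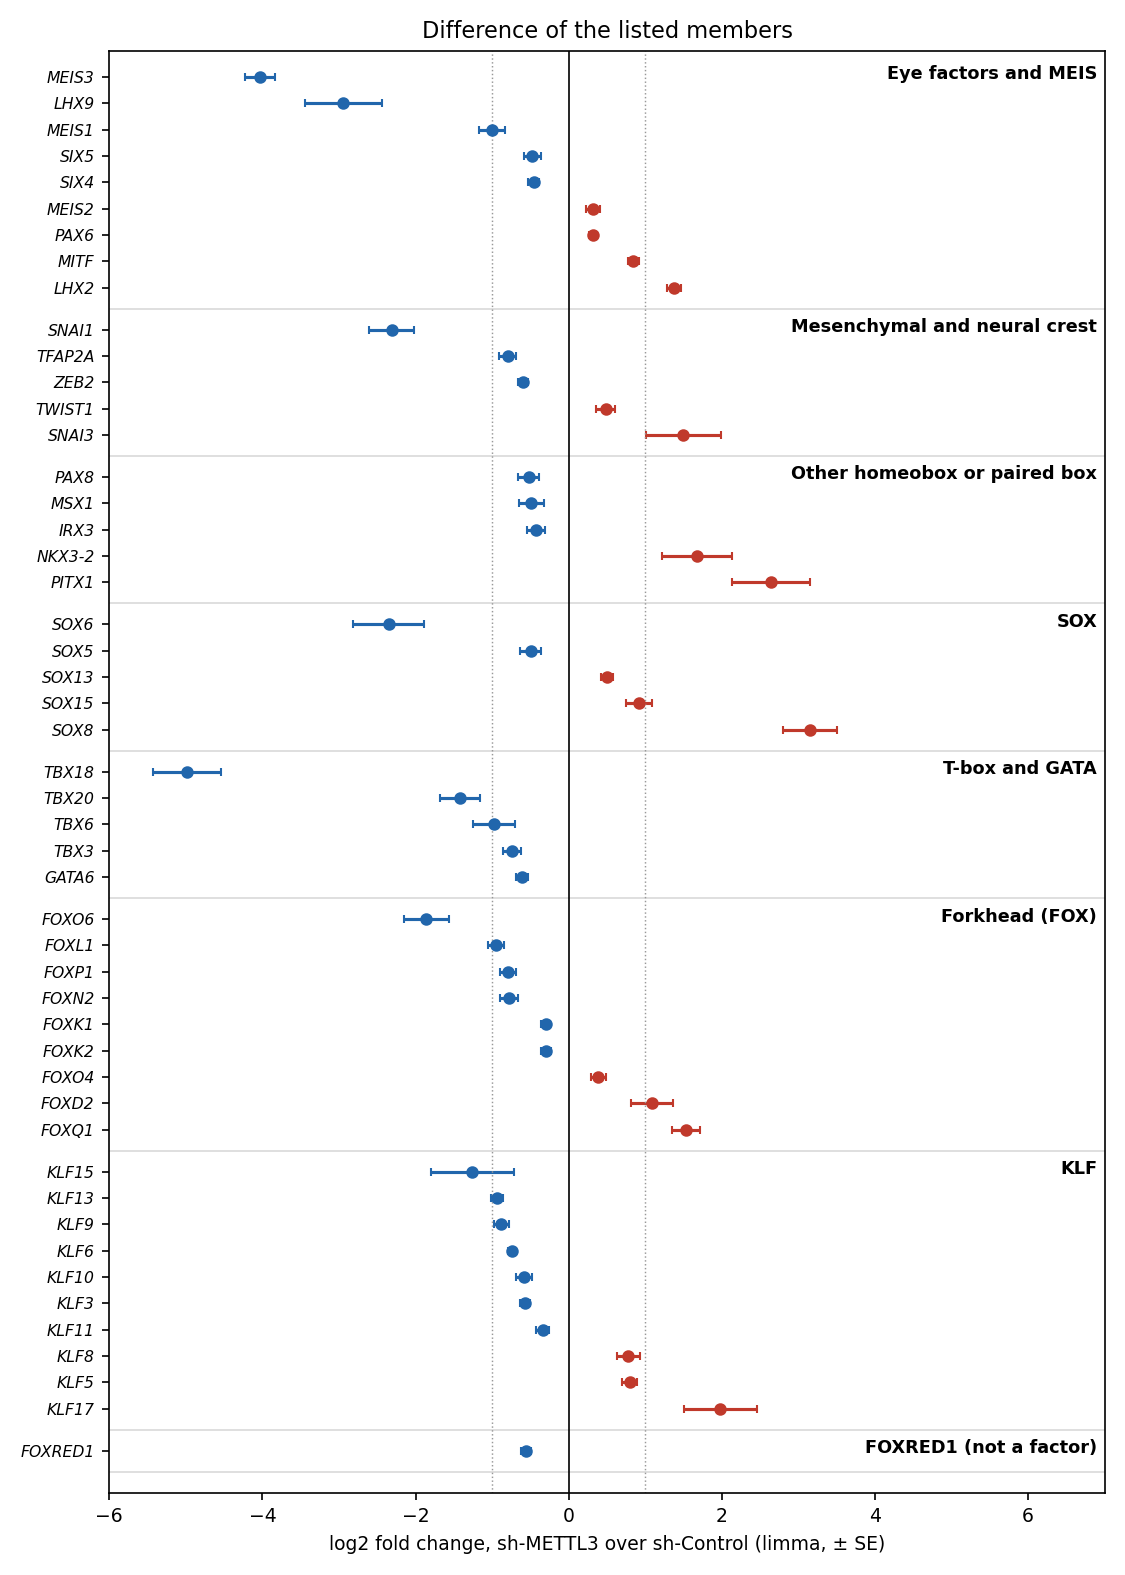
Log2 fold change of 49 of the listed factors, sh-METTL3 over sh-Control (x axis, limma, bars are ± SE), grouped by family role. The values run from −4.99 for TBX18 to 3.15 for SOX8, and the 5 T-box and GATA factors all lie left of 0.

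Among the factors of the eye and the MEIS family, 4 were higher and 5 were lower. LHX2 (ENSG00000106689, GRCh38 chromosome 9, 124001670 to 124033301, plus strand), a LIM homeobox factor needed for the optic vesicle, had scaled counts of 225, 238 and 229 in the control cells and 577, 573 and 653 in the METTL3-silenced cells. Every silenced library was far above every control library. It averaged 231 ± 6.83 and 601 ± 44.9 (SD, n = 3), which is 2.59-fold higher (log2 fold change 1.37, SE 0.0922, adjusted p = 8.2e-07 by limma). MITF (ENSG00000187098, GRCh38 chromosome 3, 69739435 to 69968337, plus strand), the basic helix-loop-helix factor that drives pigment genes, had 598, 644 and 628 in the control cells and 1067, 1137 and 1159 in the silenced cells. It rose 1.80-fold with no overlap (log2 fold change 0.85, SE 0.0668, adjusted p = 2.29e-06 by limma). PAX6 (ENSG00000007372, chromosome 11, 31784779 to 31818062, minus strand), the paired factor of the eye field, rose by less. Its scaled counts were 1887, 1878 and 1855 against 2329, 2260 and 2407, which put all silenced libraries above the controls by 1.24-fold (log2 fold change 0.32, SE 0.0507). Exons of ELP4 on the opposite strand cover 25.2% of the exonic bases of PAX6, and how the counting treated strand was not given.

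SIX4 and SIX5, relatives of the eye-field factors SIX3 and SIX6, were both lower. SIX4 had 688, 677 and 669 in the control cells and 512, 499 and 470 in the silenced cells, and the groups stood clearly apart (log2 fold change −0.46, SE 0.0726). SIX5 had 282, 334 and 310 against 226, 238 and 202, also without overlap (−0.47, SE 0.115). The SIX5 value is uncertain, because the listed transcript AC074212.1 on the opposite strand covers 56.8% of its exonic bases. LHX9, a relative of LHX2, was barely detected. It had 12, 11 and 8 reads in the control libraries and 0, 1 and 0 in the silenced ones, a ratio of control to silenced scaled counts of 25.3 with an exact 95% interval of 4.21 to 1030 that covers counting error only.

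The 3 MEIS genes, TALE homeobox factors that act as partners of HOX and PBX proteins, differed from each other in direction and size. MEIS3 (ENSG00000105419, chromosome 19, 47403124 to 47419523, minus strand) had a strong fall. It had 256, 262 and 223 in the control cells and 13.1, 12.9 and 16.8 in the METTL3-silenced cells. All 3 silenced libraries were low and close to each other, with means of 247 ± 20.9 and 14.2 ± 2.21 (SD, n = 3) and a log2 fold change of −4.03 (SE 0.192, adjusted p = 9.47e-08 by limma). MEIS1 had 387, 390 and 474 against 265, 205 and 163, a fall to 0.50 of the control level with no overlap (adjusted p = 0.000334 by limma). MEIS2 went the other way, from 630, 631 and 709 to 760, 771 and 923 (log2 fold change 0.31, SE 0.0918, adjusted p = 0.00758 by limma). Its lowest silenced library was above its highest control library, but the gap was small beside the spread. Per kilobase of exonic length, MEIS2 had 60.8 scaled counts in the control cells, MEIS3 48.3 and MEIS1 38.1. In the silenced cells these levels were 75.7, 2.78 and 19.3, so MEIS2 was the highest of the family in both groups.

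**Figure D2:**
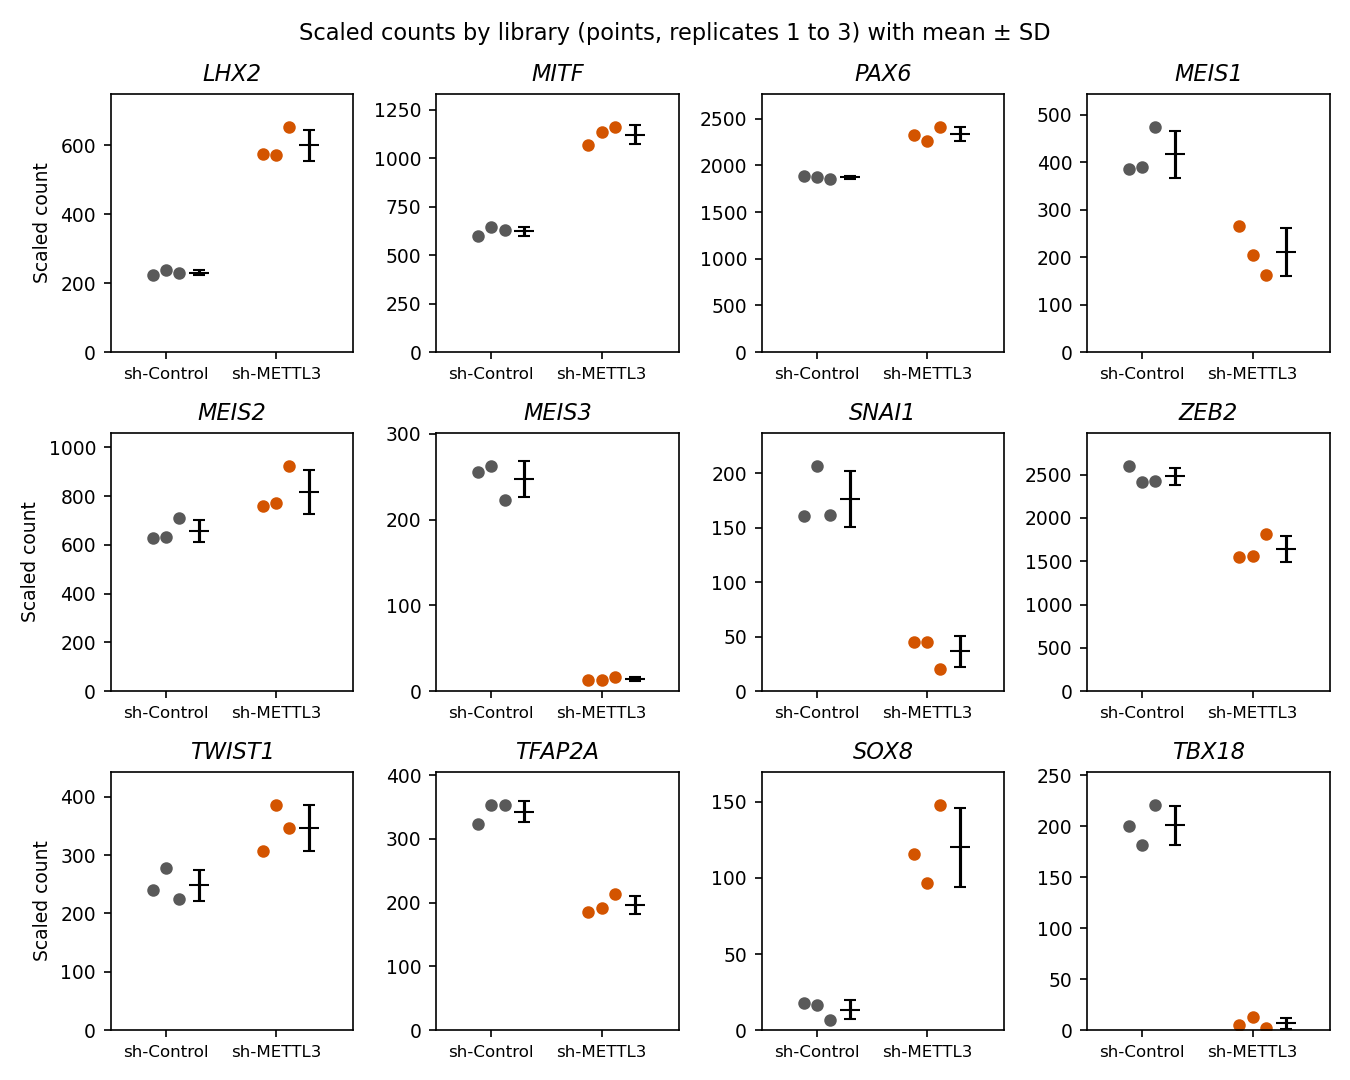
Scaled counts (y axis, each panel from 0) of single factors in the 3 sh-Control and 3 sh-METTL3 libraries, with points for libraries and bars for mean ± SD. MITF, LHX2 and SOX8 lie higher in every silenced library, and MEIS3, TBX18 and SNAI1 lie lower.

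The factors of the neural crest and the mesenchymal transition did not move in 1 direction, with 2 higher and 3 lower. SNAI1 (ENSG00000124216, chromosome 20, 49982999 to 49988886, plus strand), the zinc finger repressor of CDH1, had 161, 207 and 162 in the control cells and 44.8, 45.1 and 20.2 in the silenced cells. It fell to 0.201 of the control level without overlap (176 ± 26.1 and 36.7 ± 14.3, SD, n = 3; log2 fold change −2.31, SE 0.292, adjusted p = 5.3e-05 by limma). The lowest value came from sh-METTL3 replicate 3. ZEB2, a second repressor of epithelial genes and the most highly counted of this group, fell from 2596, 2409 and 2429 to 1553, 1561 and 1812 (log2 fold change −0.60, SE 0.0699). Every silenced library was well below the controls. TFAP2A, a factor of the neural crest and surface ectoderm, fell from 323, 353 and 352 to 186, 192 and 213 (−0.80, SE 0.107).

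TWIST1, a basic helix-loop-helix factor of mesenchyme, was higher in the silenced cells. Its scaled counts were 241, 278 and 225 in the controls and 307, 385 and 347 in the silenced libraries (log2 fold change 0.48, SE 0.123, adjusted p = 0.00375 by limma). The groups did not overlap, although the highest control and the lowest silenced library were close. SNAI3 had 16.8, 3.84 and 8.41 against 28.9, 15.5 and 35.8, so sh-METTL3 replicate 2 lay below sh-Control replicate 1. It was the only member with overlapping groups (2.82-fold higher, adjusted p = 0.0126 by limma), and without sh-Control replicate 2 the adjusted p was 0.0536. SNAI2, TWIST2, ZEB1, PRRX1 and PRRX2 had no row.

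The remaining homeobox and paired-box factors comprised 2 that were higher and 4 that were lower. PAX8, MSX1 and IRX3 fell, with log2 fold changes from −0.52 to −0.42. For MSX1 the highest silenced library (199) was close to the lowest control (209), and its adjusted p was 0.0142 by limma. It lost the call without sh-Control replicate 2 (adjusted p = 0.0741) or without sh-METTL3 replicate 1 (adjusted p = 0.0601). The 2 members on the higher side rested on few reads. PITX1 had 1, 0 and 2 reads in the controls and 14, 7 and 7 in the silenced libraries, a ratio of scaled counts of 11.5 (exact 95% interval for counting error only, 3.54 to 58.9). NKX3-2 had 2, 6 and 4 reads against 19, 7 and 12.

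Of the 5 SOX factors, 3 were higher and 2 were lower. SOX8 (ENSG00000005513, chromosome 16, 981808 to 986979, plus strand), a member of the SOX subgroup that also holds SOX9 and SOX10, had the largest fitted rise among members with a mean of at least 50 in the higher group. Its scaled counts were 17.5, 16.3 and 6.54 in the control cells and 116, 96.7 and 148 in the METTL3-silenced cells. Each silenced library was several fold above the highest control, with means of 13.5 ± 6.03 and 120 ± 25.9 (SD, n = 3) and an 8.88-fold rise (log2 fold change 3.15, SE 0.349, adjusted p = 2.2e-05 by limma). SOX15 rose from 139, 133 and 98.1 to 230, 205 and 261, and SOX13 from 420, 404 and 447 to 591, 608 and 589. Neither showed overlap, and their log2 fold changes were 0.92 (SE 0.165) and 0.49 (SE 0.078). The SOXD factors SOX5 and SOX6, which lack a transactivation domain of their own, were both lower, unlike SOX13 of the same subgroup. SOX6 fell from 60.6, 103 and 76.6 to 25.2, 20.6 and 5.6 (log2 fold change −2.35, SE 0.466, adjusted p = 0.000925 by limma). SOX6 varied widely within both groups, yet its highest silenced library stayed well below its lowest control. Without sh-METTL3 replicate 3, its lowest library, the log2 fold change was −1.73. SOX5 fell from 142 ± 2.81 to 100 ± 9.04 (SD, n = 3).

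All 4 T-box factors and GATA6 were lower in the silenced cells. TBX18 (ENSG00000112837, chromosome 6, 84687351 to 84764519, minus strand), a repressor of the T-box family known from epicardium and ureteral mesenchyme, had the largest fitted fall among members with a mean of at least 50 in the higher group. It had scaled counts of 200, 182 and 221 in the control cells and 4.66, 12.9 and 2.24 in the silenced cells. These came from 251, 189 and 236 reads against 5, 10 and 2 reads. The transcript was thus close to the limit of counting in every silenced library, at 0.0315 of the control level (log2 fold change −4.99, SE 0.442, adjusted p = 4.94e-06 by limma). TBX20, a cardiac T-box factor, fell from 35.1, 57.6 and 54.2 to 15.9, 18 and 17.9 (−1.42, SE 0.263). TBX6, known from presomitic mesoderm, had 51.9, 78.8 and 47.7 against 28.9, 37.4 and 22.4, a fall to 0.508 of the control level with a modest gap between the groups.

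TBX3 was the T-box factor with the highest level per kilobase of exonic length, 51.5 in the control cells and 30.6 in the silenced cells. It fell from 312, 331 and 276 to 196, 169 and 181 (log2 fold change −0.75, SE 0.118). GATA6, a zinc finger factor of endoderm and heart, fell from 865, 933 and 1038 to 636, 634 and 581 (−0.61, SE 0.0828, adjusted p = 8.46e-05 by limma). For both genes every silenced library lay below every control library.

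Among the 9 forkhead factors, 3 were higher and 6 were lower. FOXL1, a mesenchymal forkhead factor known from the gut, had the highest level per kilobase of the family, 539 in the control cells and 280 in the silenced cells. Its scaled counts were 1783, 2249 and 2018 in the control cells and 1024, 1204 and 916 in the silenced cells. It was lower in all silenced libraries (log2 fold change −0.95, SE 0.107, adjusted p = 2.61e-05 by limma). FOXO6 fell from 59.8, 80.7 and 61.7 to 14, 27.1 and 14.6, to 0.276 of the control level. FOXO4, another target of insulin and AKT signalling, rose instead from 377, 352 and 365 to 452, 530 and 453 (0.39, SE 0.0935). The FOXO pair therefore went in opposite directions, each without overlap. FOXP1 and FOXN2 fell by 0.79 and 0.78 on the log2 scale, and the closely related FOXK1 and FOXK2 each fell by 0.30. FOXQ1 (chromosome 6, 1312440 to 1314748), an epithelial forkhead factor, rose from 56.6, 62.5 and 56.1 to 146, 157 and 218 (log2 fold change 1.54, SE 0.184, adjusted p = 3.68e-05 by limma), with all silenced libraries more than doubled. FOXD2 rose from 15.7 ± 3.3 to 34.4 ± 6.1 (SD, n = 3).

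The 10 KLF factors, zinc finger proteins that bind GC-rich promoters, comprised 3 that were higher and 7 that were lower. KLF13 fell from 1607, 1683 and 1661 to 836, 794 and 970 (log2 fold change −0.93, SE 0.0775, adjusted p = 3.18e-06 by limma). KLF9, a glucocorticoid-responsive factor of the same subgroup, fell from 2762, 2659 and 2733 to 1600, 1634 and 1232 (−0.88, SE 0.0963). In both genes the controls were tightly grouped far above the silenced libraries. The immediate-early gene KLF6 fell from 3111 ± 112 to 1865 ± 21.8 (SD, n = 3), and the TGF-beta-induced KLF10 from 2247 ± 188 to 1510 ± 215. KLF10, KLF9 and KLF6 had the highest levels of the family per kilobase, at 561, 525 and 507 in the control cells and 377, 288 and 304 in the silenced cells. KLF3 and KLF11 fell by 0.57 and 0.34 on the log2 scale.

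On the higher side, KLF5, an epithelial factor of proliferation, rose from 400, 356 and 377 to 744, 634 and 601. KLF8 rose from 142, 195 and 177 to 264, 277 and 338. Neither overlapped between groups, and the log2 fold changes were 0.80 (SE 0.0979) and 0.78 (SE 0.15). KLF17 had 4, 9 and 2 reads in the controls and 17, 12 and 22 in the silenced libraries. KLF15 was the least certain member. It had 79.8, 20.2 and 15 in the control cells and 14.9, 11.6 and 8.96 in the silenced cells, so sh-Control replicate 1 stood far above all other libraries. Its log2 fold change of −1.26 (SE 0.536, adjusted p = 0.0411 by limma) became −0.55 with an adjusted p of 0.169 when that library was left out. Leaving out any 1 sh-METTL3 library also ended the call, with adjusted p-values of 0.0526, 0.0768 and 0.0873 for replicates 1, 2 and 3, while the log2 fold change stayed at −1.43, −1.26 and −1.09.

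**Figure D3:**
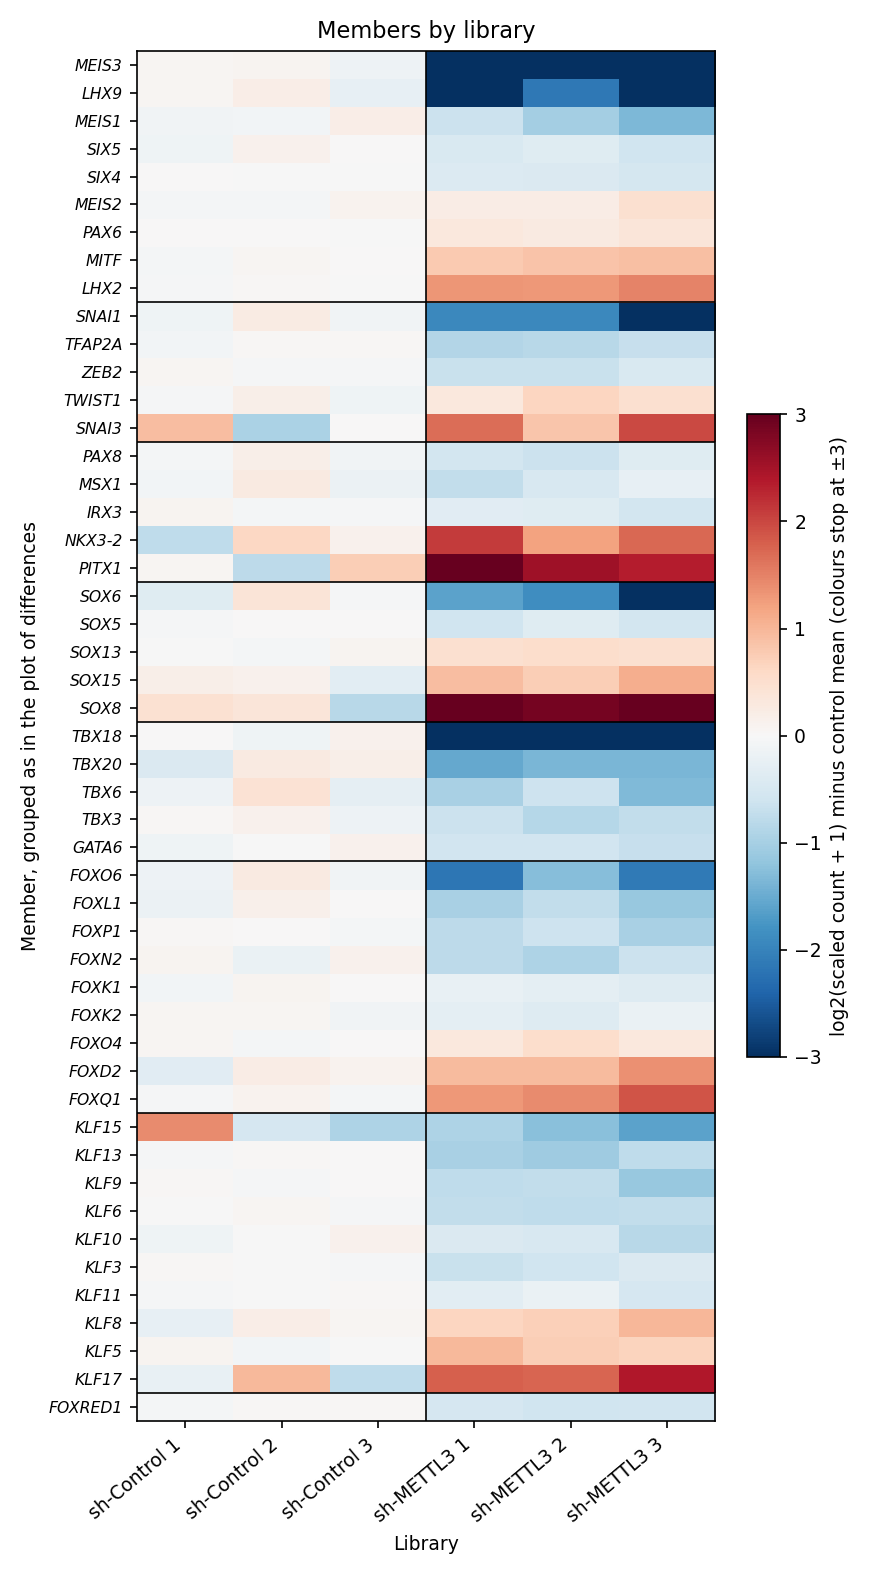
Heat map of 49 of the listed factors (rows) in the 6 libraries (columns), coloured by log2(scaled count + 1) minus the mean of the 3 control libraries, with colours stopping at ±3. The 3 sh-METTL3 columns resemble each other in most rows, and KLF15 shows sh-Control replicate 1 apart from the other controls.

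The size of the difference varied with the level of the gene. Members with large fold changes, such as TBX18, MEIS3, SOX8, SOX6 and SNAI1, were weakly to moderately counted, whereas the highly counted FOXK1, KLF6 and PAX6 differed by less than a halving or a doubling. The listed genes as a whole had the same form, with no small differences among the weakest genes. Only genes already called were listed, and a weakly counted gene needs a large difference to be called. The relation therefore comes with the listing and cannot be read as a trait of the members. Among members with a mean of at least 50 over the 6 libraries, 39 remained, with 12 higher and 27 lower, and 6 of them passed a doubling or halving.

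**Figure D4:**
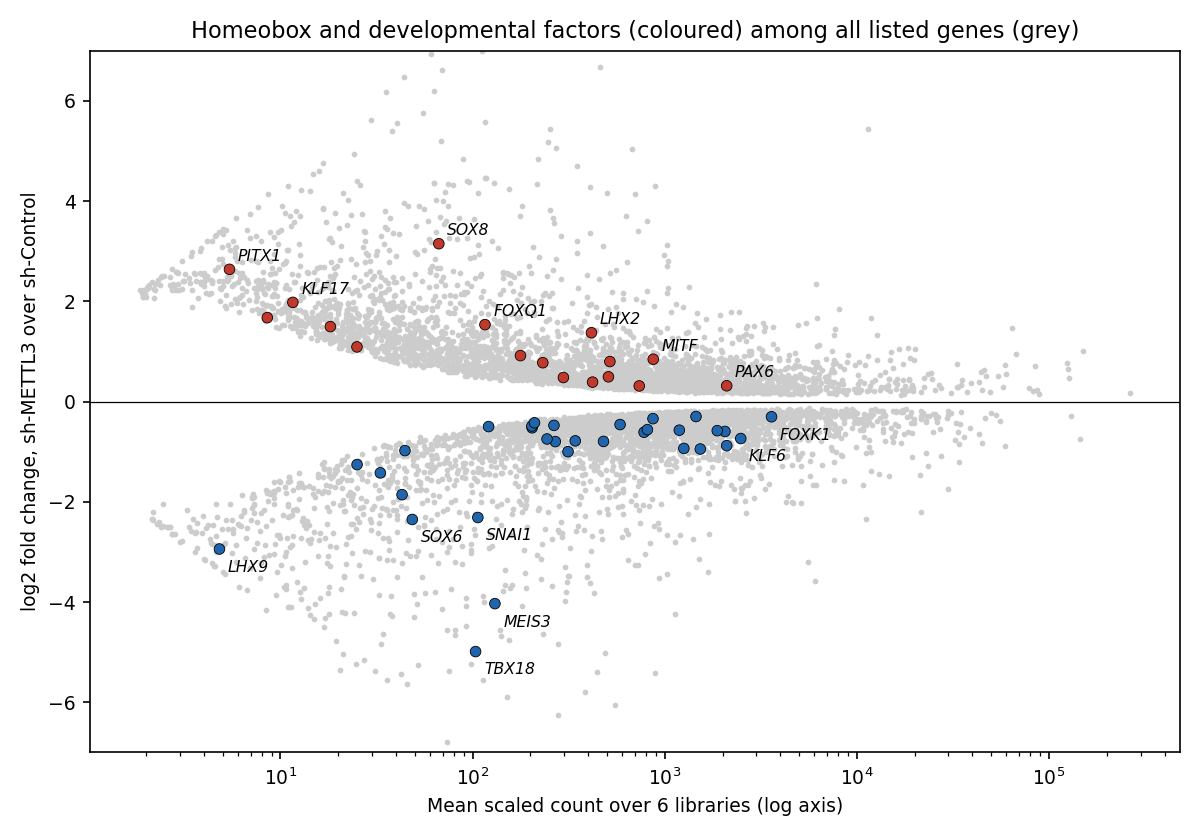
Log2 fold change (y axis) against the mean scaled count over 6 libraries (x axis, log scale) for 49 of the factors (coloured, red higher and blue lower in sh-METTL3) and all other listed genes (grey). The grey genes leave a gap around 0 that widens towards low counts, and the members lie along the same 2 wings. Only genes already called were listed, so the gap comes with the listing. The 4 listed genes beyond ±7 are not drawn.

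Some members lie among listed genes that moved together. For each member, up to 20 of the nearest listed genes on each side were taken from its chromosome, with fewer for members near a chromosome end. For MEIS2 on chromosome 15 all 40 neighbours were lower by the sign of the fold change (median −1.02 on the log2 scale), whereas MEIS2 itself was higher. KLF13, on the same chromosome, had 36 of 40 neighbours lower with a median of −1.08, close to its own −0.93. FOXRED1 on chromosome 11 had 37 of 40 lower with a median of −0.78, and its own value was −0.56. KLF9 on chromosome 9 was the reverse case, with 9 of 40 neighbours lower and a median of 1.19, while KLF9 fell by 0.88. For TBX18 and MEIS3 the neighbours were mixed, with 21 and 22 of 40 lower. The part of these neighbourhoods in the members' values was not tested.

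**Figure D5:**
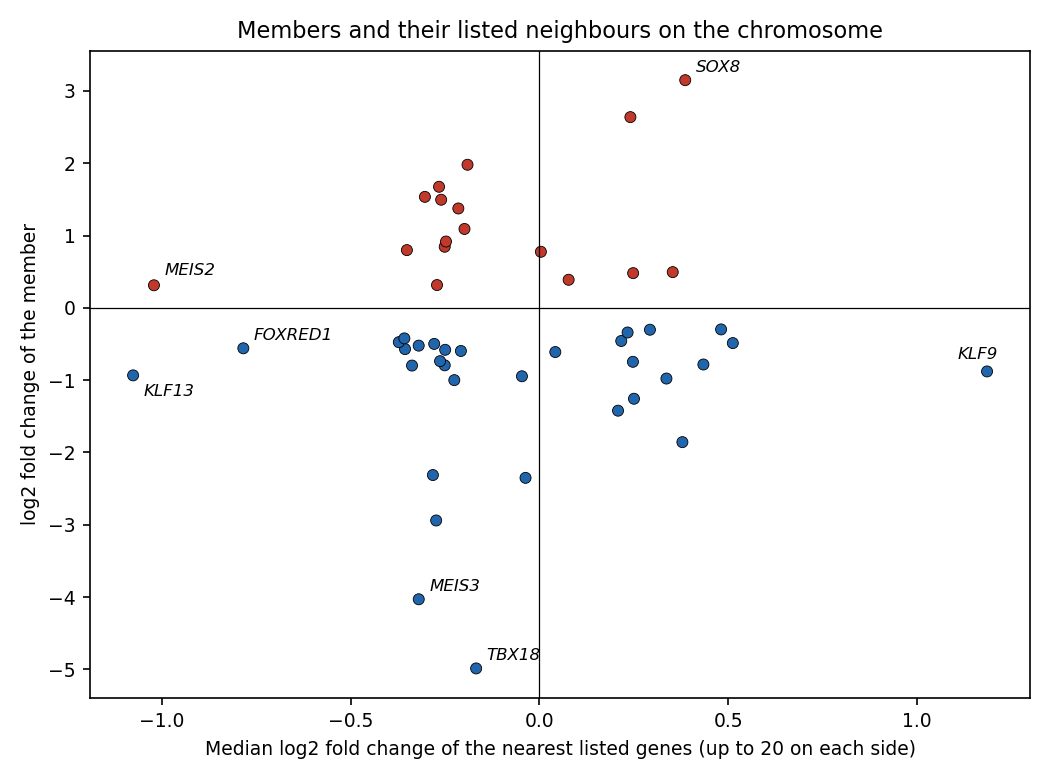
Log2 fold change of 49 of the listed factors (y axis) against the median log2 fold change of its nearest listed genes, up to 20 on each side (x axis). KLF13 and MEIS2 lie at the far left near −1, KLF9 at the far right near 1.19, and most other members lie between them, close to 0 on the x axis.

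Genes that act with these factors were read from lists. Of 30 cofactors and chromatin regulators of HOX genes, 15 were listed, 5 of them higher (33.3%) and 10 lower (66.7%). Their median was −0.32 on the log2 scale. Among all listed protein-coding genes 43.8% were higher and 56.1% lower, and among the other listed transcription factors 39.2% and 60.8%. No test of these list counts was made. PBX3, a homeobox partner of MEIS and HOX proteins, rose from 1991 ± 88.3 to 2639 ± 172 (SD, n = 3). The PBX-interacting protein PBXIP1 rose from 3608 ± 186 to 5946 ± 274. KMT2A, a histone methyltransferase that maintains HOX expression, fell by 0.62 on the log2 scale, and the Polycomb subunit EED fell by 0.76. Both genes lie on chromosome 11, as FOXRED1 does, and their neighbours were not examined.

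Retinoic acid and BMP signalling act upstream of many of these factors, and 14 of the 32 genes of that list had a row. Of these, 11 were higher (78.6%) and 3 lower (21.4%), with a median of 0.73. Among all listed protein-coding genes 43.8% were higher and 56.1% lower. ID4, an inhibitor of basic helix-loop-helix factors and a target of BMP, rose from 260 ± 27.5 to 1824 ± 160 (SD, n = 3). ID1 rose from 691 ± 81.3 to 1662 ± 8.78 and ID3 from 1478 ± 172 to 3661 ± 353. The BMP-responsive SMAD9 rose from 309 ± 10.7 to 1225 ± 31.1. DHRS3, a reductase that limits retinoic acid, rose from 2792 ± 28.2 to 3273 ± 302. On the lower side, the BMP antagonist GREM1 fell from 344 ± 62.6 to 32.9 ± 13.7. The antagonist NOG fell from 280 ± 33.1 to 103 ± 38.3. CYP26B1, which degrades retinoic acid, fell from 1132 ± 54.3 to 538 ± 36.4. GREM1 lies on chromosome 15, as KLF13 and MEIS2 do, and its neighbours were not examined.

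Genes downstream of the eye and mesenchymal factors did not all follow 1 direction. The shares of all listed protein-coding genes, 43.8% higher and 56.1% lower, are the background for each count here. Of 23 annotated pigment epithelium genes 12 were listed, with 8 higher (66.7%) and 4 lower (33.3%). The retinoid enzyme RDH5 rose from 70 ± 5.57 to 207 ± 4.24 and LRAT from 129 ± 12.2 to 258 ± 25.6 (SD, n = 3). PMEL, a melanosome protein and a known target of MITF, fell from 368 ± 5.99 to 105 ± 8.41 while MITF was higher. BEST1, another MITF target, fell from 82.8 ± 4.56 to 25.4 ± 9.22. BEST1 lies on chromosome 11, as FOXRED1 does, and its neighbours were not examined. SLC45A2, of the same list, rose with MITF, from 56.7 ± 9.58 to 108 ± 20.1. Of 12 epithelial genes 7 were listed, 2 higher (28.6%) and 5 lower (71.4%). Among the lower ones, CLDN3 fell from 131 ± 18.6 to 15.7 ± 3.92. Of 14 mesenchymal genes 8 were listed, 3 higher (37.5%) and 5 lower (62.5%). The intermediate filament gene VIM rose from 45935 ± 1006 to 89437 ± 8266. The surface protein gene THY1 fell from 176 ± 20.8 to 28.7 ± 13. THY1 lies on chromosome 11, as FOXRED1 does, and its neighbours were not examined.

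Markers of cell types were examined beside these values. Of 15 RPE markers 7 were listed, 4 higher (57.1%) and 3 lower (42.9%), beside 43.8% and 56.1% of the listed protein-coding genes. MITF, itself a member, is among the higher ones. The summed scaled count of the 7 was 18860 to 20130 in the control libraries and 30160 to 33480 in the silenced libraries. Most of it came from keratins. RPE65, RLBP1, OTX2 and TYR had no row. Of 7 fibroblast markers 4 were listed and all 4 were lower, with sums of 11360 to 13230 and 4730 to 5383. None of the 8 markers of neural retina and none of the 4 of endothelium was listed. Of 4 leukocyte markers CD14 was listed, at 25.3 ± 0.609 in the control cells and 1.31 ± 1.41 in the silenced cells (SD, n = 3), and of 4 melanocyte markers EDNRB, which was lower. Markers without a row cannot be said to be at 0, and the part of cell composition in the members' values was not tested.

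Promoter sequences were read for the members, as stretches of 250 bases before an annotated start (RefSeq, GRCh38.p14). For 36 of the 50 members a stretch was found, 64 in all. Only 25 of these members had a single stretch, and PAX6 had 9. Shares of stretches therefore give more weight to members with many starts. The counts of members with an element have no matching share over all genes. The nuclear receptor element AGGTCA, searched on both strands as were the others below, stood in 3 members and in 4.69% of their stretches, beside 12.1% of all 35116 promoters. The GC box GGGCGG, the element that KLF and SP proteins bind, stood in 27 members and 54.7% of their stretches, beside 42.6% of all. It was present in 11 of 13 higher and 16 of 23 lower members. The E-box CAGGTG bound by SNAI and ZEB factors stood in 6.25% of the members' stretches and 17.5% of all, CACGTG in 6.25% and 6.34%, and CATGTG, the core of the element that MITF binds, in 7.81% and 9.42%. A match of letters describes the sequence and shows no binding. The 3 members with the AGGTCA element, and TBX18 and FOXQ1 as the strongly lower and a strongly higher member with the GC box, are printed 5′ to 3′ on the strand of the gene, with the element in capitals as it reads on that strand. The MITF stretch lies before 1 of its 3 starts (plus strand, chr3:69763693-69763810) and was shortened where it met an annotated exon. The TFAP2A stretch (minus strand, chr6:10419660-10419909) lies before 1 of 2 starts. TBX6 (minus strand, chr16:30091925-30092174), TBX18 (minus strand, chr6:84764599-84764848) and FOXQ1 (plus strand, chr6:1311848-1312097) have 1 start each.
MITF: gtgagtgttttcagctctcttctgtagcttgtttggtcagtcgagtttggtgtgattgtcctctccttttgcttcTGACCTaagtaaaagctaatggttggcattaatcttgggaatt
TFAP2A: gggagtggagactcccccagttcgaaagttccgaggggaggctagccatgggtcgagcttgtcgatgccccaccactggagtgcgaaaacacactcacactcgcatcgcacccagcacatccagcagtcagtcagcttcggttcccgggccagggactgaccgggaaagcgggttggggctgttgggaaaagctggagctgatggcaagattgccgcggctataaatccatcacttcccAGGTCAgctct
TBX6: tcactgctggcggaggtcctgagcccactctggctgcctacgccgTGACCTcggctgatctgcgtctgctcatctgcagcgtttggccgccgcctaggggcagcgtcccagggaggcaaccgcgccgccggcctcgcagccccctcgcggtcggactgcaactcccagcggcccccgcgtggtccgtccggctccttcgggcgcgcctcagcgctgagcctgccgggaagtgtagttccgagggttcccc
TBX18: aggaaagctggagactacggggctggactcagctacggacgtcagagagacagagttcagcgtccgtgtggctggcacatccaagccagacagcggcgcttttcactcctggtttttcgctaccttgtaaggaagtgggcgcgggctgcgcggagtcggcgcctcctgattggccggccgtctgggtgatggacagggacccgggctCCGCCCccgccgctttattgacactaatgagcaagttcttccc
FOXQ1: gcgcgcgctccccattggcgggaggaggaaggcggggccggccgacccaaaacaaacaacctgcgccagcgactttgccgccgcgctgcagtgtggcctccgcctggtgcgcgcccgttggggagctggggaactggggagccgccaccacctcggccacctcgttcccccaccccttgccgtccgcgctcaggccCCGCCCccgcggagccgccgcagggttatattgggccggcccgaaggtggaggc
MITF was higher in the silenced cells, while TFAP2A and TBX6, with the same element, were lower. TBX18 and FOXQ1 both hold the GC box and went in opposite directions.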

How the data were processed

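RNA was sequenced from 3 sh-METTL3 and 3 sh-Control libraries of ARPE-19 cells, grouped by their labels. The submitters' processing notes name HISAT2 2.0.5 and the genome build hg38. The read counter, its strand setting and the authors' test were not given in the sources used here, and the Cufflinks and RefSeq steps of the study's methods differ from the form of the table. The authors deposited, per library, a signal, namely each gene's reads scaled by 1 size factor. Once divided by the value of 1 read, 100% of the values were whole within 0.01 reads, so counting error can be judged from reads. The authors also deposited group means and columns of fold change, p-value and adjusted p-value, which were not used. No adjusted p-value there exceeds 0.05, so only called genes are listed. Columns of library values outside the 6 libraries numbered 0. Gene coordinates equal those of GENCODE release 29 for 50 of 50 members.

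All 7758 listed genes were fitted with limma 3.58.1 (R 4.3.3, intensity trend, no covariates) on log2(scaled count + 1), a scale that understates the change of weak genes. Benjamini-Hochberg adjustment ran over the listed genes, where it changes little, with a threshold of 0.05. Levels per kilobase divide by exonic length. The fits were also run on simulated data in which most genes did not differ. That setting is unlike this list, so the run cannot vouch for the calls here. Members and gene lists were chosen with earlier results of these data known. Per-library values were given for the 10 largest rises and 10 largest falls with a mean of at least 50 in the higher group and no overlap, for eye, RPE and mesenchymal factors, for the highest level per kilobase in a family, and for members in stretches of neighbours that moved together. A few genes under this rule are not reported here. Others named were chosen after their values were seen. Same-numbered libraries of the groups correlated at 0.0112, −0.0425 and −0.0532 in their deviations, so the numbers were not treated as pairs.

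Alternatives were a pseudocount of 0.1, listed genes with a mean of at least 50, edgeR 4.0.16 (quasi-likelihood, whole reads, authors' or TMM factors), DESeq2 1.42.0, 3 times as many tests, a threshold of 0.01, a replicate block, each library left out in turn, and, added after seeing the data, values centred on the median of the listed genes.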

Additional observations from a re-analysis of the deposited data

How the results depend on the processing

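No member changed sign under any alternative run, which says little, because no listed gene lies near 0. The count of 17 higher and 33 lower members stayed within 1.5 times its value under each alternative (DESeq2 called 17 and 30, a threshold of 0.01 called 16 and 31). The count past a doubling or halving fell from 16 to 6 when only the 39 members with a mean of at least 50 were kept, since the filter removes weakly counted members. The median log2 fold change of the members was −0.51. It moved to −0.47 with TMM factors, −0.39 with DESeq2 and −0.40 with the listed genes centred on their median, as the median of all listed genes moved from −0.21 to −0.17, −0.09 and −0.10. The share of called listed genes that were higher was 47.7%, and it turned to 53.7% with DESeq2 and 51.8% with centring. Leaving out 1 library gave 16 to 17 higher, 31 to 33 lower, 16 to 18 past a doubling or halving, and a median of −0.54 to −0.47. With the replicate number as a block, 17 members were higher and 33 lower, 16 passed a doubling or halving and the median was −0.51, so the block changed no call of a member. KLF15 lost its call in 8 alternatives and MSX1 in 4, SNAI3 in 2, and IRX3 (adjusted p = 0.0557) and SOX5 (adjusted p = 0.0575) with DESeq2 only. Members with few reads, such as LHX9, PITX1, NKX3-2 and KLF17, are limited by counting.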

Other observations

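Rows of noncoding genes with symbols of the same families were listed beside the members. FOXD2-AS1 had scaled counts of 10.4, 10.6 and 8.41 in the control cells and 36.4, 47.7 and 32.5 in the METTL3-silenced cells, and FOXD2 was also higher. TBX2-AS1 had 37.5, 41.3 and 66.4 against 115, 115 and 99.7, while TBX2 itself had no row. TFAP2A-AS2, whose exons cover 11.4% of the exonic bases of TFAP2A on the other strand, had 10.4, 19.2 and 18.7 against 30.8, 46.4 and 39.2, and TFAP2A was lower. ZEB1-AS1 had 105, 113 and 109 against 204, 222 and 121, so sh-METTL3 replicate 3 lay near the controls. SIX3-AS1 had 99.7, 96.1 and 95.3 against 118, 133 and 180. GATA2-AS1 was listed at 0 in the 3 control libraries and at 1.87, 2.58 and 8.96 in the silenced ones.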
